A study of Homo sapiens with 6 samples.

Results

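Heat shock chaperones are the proteins that fold, refold and hold other proteins, and many of their genes are highly transcribed in growing cells. The genes described here were chosen by symbol: HSP90AB1, HSP90AA1, HSPA8, HSPA1A, HSPA1B, HSPD1, HSPE1, HSPH1, DNAJB1 and HSPA9. Of these 10 genes, 8 have values, out of 12438 gene symbols in all, and HSPA1B and HSPH1 were not analysed here. The 8 genes fill 13 of 22442 deposited rows, because HSP90AA1, HSPA8 and HSPD1 each have 2 transcripts and HSPA1A has 3 rows with identical values.

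Nascent transcription was read by GRO-seq (global run-on sequencing), in which nuclei are isolated and the polymerases already engaged on DNA run on, so that new RNA can be collected and sequenced. The cells were A375, an established human malignant melanoma line, treated for 48 h with the solvent DMSO, with 25 µM leflunomide or with 25 µM A771726, in 2 samples per group and 6 in all. Leflunomide is a prodrug with a closed isoxazole ring, and A771726 (teriflunomide) is its active metabolite, in which that ring is open. A771726 inhibits dihydroorotate dehydrogenase, an enzyme of pyrimidine synthesis. The series asks how HEXIM1, a regulator of transcription elongation, is tied to this inhibition. The labels name duplicates but not separate cultures, so every p-value here measures the spread between these samples, which may be technical.

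HSP90AB1 and HSP90AA1 encode the cytosolic HSP90 proteins, the first made constitutively and the second more inducible, and both hold kinases and hormone receptors ready for use. HSPA8 is the constitutive and HSPA1A the stress-inducible cytosolic HSP70, and DNAJB1 is an HSP40 protein that delivers clients to HSP70 and stimulates its ATPase. HSPD1 and HSPE1 form the HSP60 and HSP10 chaperonin of mitochondria, and HSPA9 (mortalin) is the mitochondrial HSP70. Under stress, heat shock factor 1 (HSF1) binds heat shock elements, which are inverted repeats of the unit GAA. At heat shock genes polymerase is known to pause just after the start, so density near the promoter and density along the gene are measured separately.

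Heat shock elements were searched in the RefSeq promoter table (GRCh38.p14), which gives 250 bases before to 50 bases after each start and matched all 8 genes. The forms searched, on both strands, were GAANNTTC and TTCNNGAA (2 units) and the 3-unit forms that add NNGAA to the first or NNTTC to the second, each of which contains both 2-unit forms. A 2-unit form lay in a window of 7 of the 8 genes and a 3-unit form in 4 of the 8. Over the whole table, 16.2% of 27305 gene symbols had a 2-unit form and 0.608% a 3-unit form. The stretches below are shown because they hold these matches upstream of a start, in the direction of transcription, with each matched GAA or TTC unit in capitals.
HSP90AB1, chr6:44247768-44247853, plus strand: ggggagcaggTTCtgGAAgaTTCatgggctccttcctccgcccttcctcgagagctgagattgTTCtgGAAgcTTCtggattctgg
HSP90AA1, chr14:102087104-102087133, minus strand: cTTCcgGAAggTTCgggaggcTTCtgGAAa
HSPA8, chr11:123062344-123062376, minus strand: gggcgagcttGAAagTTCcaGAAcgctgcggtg
HSPA8, chr11:123062171-123062199, minus strand: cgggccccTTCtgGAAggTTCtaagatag
HSPA1A, chr6:31815427-31815454, plus strand: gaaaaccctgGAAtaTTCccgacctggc
DNAJB1, chr19:14518427-14518484, minus strand: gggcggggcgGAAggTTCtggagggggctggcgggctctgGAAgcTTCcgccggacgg
HSPD1, chr2:197500061-197500090, minus strand: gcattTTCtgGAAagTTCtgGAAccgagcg

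HSP90AB1 carries 2 three-unit matches, upstream of the third of its 3 listed starts and inside the gene in the GENCODE annotation of GRCh38. HSPA8 carries 2 as well, 1 of them within an annotated exon, and the matches of HSP90AA1 lie upstream of the second of its 2 starts, within an annotated HSP90AA1 exon. HSPA1A and DNAJB1 carry only 2-unit forms. HSPD1 and HSPE1 are neighbours transcribed in opposite directions, with their starts 105 bases apart for the first HSPD1 start and 539 for the second. The HSPD1 stretch lies upstream of that second start and within an annotated HSPE1 exon, and the window of HSPE1 itself holds none of these letters. HSPA9 has 1 match of a 2-unit form, which does not lie wholly upstream of its start and is not shown. The deposited tables use the earlier build hg18 and give no coordinates, so these windows were not tied to the deposited promoter window, and a match is a description of letters and not a binding site.

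The deposited values are group means, in density units without a stated scale, and they are printed as the authors' means without SD. The values of single libraries were recovered by solving, for each row, the mean promoter density, mean gene body density and mean traveling ratio (promoter over gene body density) for the 1 pair of libraries that gives all 3. All 8 chaperone genes were solved in every group. Library 1 of a group is the one in which 1 promoter read is worth less density, and the numbers pair nothing between groups. For HSPA8 and HSP90AA1 under A771726 both values were solved, but not which library each belongs to. Their promoter values there are not whole reads of either library. A single read in a promoter stood for a density of 0.0438 and 0.0520 (DMSO), 0.0347 and 0.0376 (leflunomide) and 0.0241 and 0.0313 (A771726), and the sequencing depth of the libraries is not given in the sources used here. No row of the tables has a DMSO traveling ratio above 7.5, so the genes were preselected on DMSO values. Of 12 melanocyte and melanoma markers 8 have a row, and TYR, DCT, S100B and SOX9 were not analysed here. In DMSO gene body density SOX10, S100A1, ERBB3, AXL and PAX3 lay between the 73.3rd and 98.4th percentile of genes, and the pigment genes MITF, PMEL and MLANA between the 22.5th and 42.3rd. Leukocyte markers have no row, and the summed density of the epithelial, endothelial or fibroblast markers with a row reached at most 0.0096 in any group.

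In DMSO all 8 chaperone genes were densely transcribed, from the 87.5th percentile of all 12438 gene symbols (HSPE1) to the 99.3rd (HSPA8). The order of mean gene body density was HSPA8 (0.640), HSP90AB1 (0.463), HSP90AA1 (0.223), DNAJB1 (0.150), HSPD1 (0.107), HSPA1A (0.0964), HSPA9 (0.0770) and HSPE1 (0.0762). The libraries of HSPA8, HSP90AB1, HSP90AA1 and DNAJB1 did not overlap with those of their neighbours in this order, whereas the last 4 genes overlapped, each with its neighbours among them. Under leflunomide the order was HSPA8 (0.461), HSP90AB1 (0.250), HSP90AA1 (0.162), DNAJB1 (0.135), HSPA1A (0.0798), HSPD1 (0.0782), HSPA9 (0.0752) and HSPE1 (0.0538), with overlap between HSP90AA1 and DNAJB1 and among the last 4. With A771726 the order was HSPA8 (0.291), HSP90AB1 (0.221), DNAJB1 (0.140), HSP90AA1 (0.130), HSPA1A (0.0680), HSPD1 (0.0595), HSPA9 (0.0478) and HSPE1 (0.0242). In that order the libraries of HSP90AA1 and HSPA1A did not overlap, nor did those of HSPA9 and HSPE1, while the other neighbours overlapped. HSPE1 then stood at the 70.0th percentile, and the other 7 genes between the 86.2nd and the 99.0th.

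**Figure D1:**
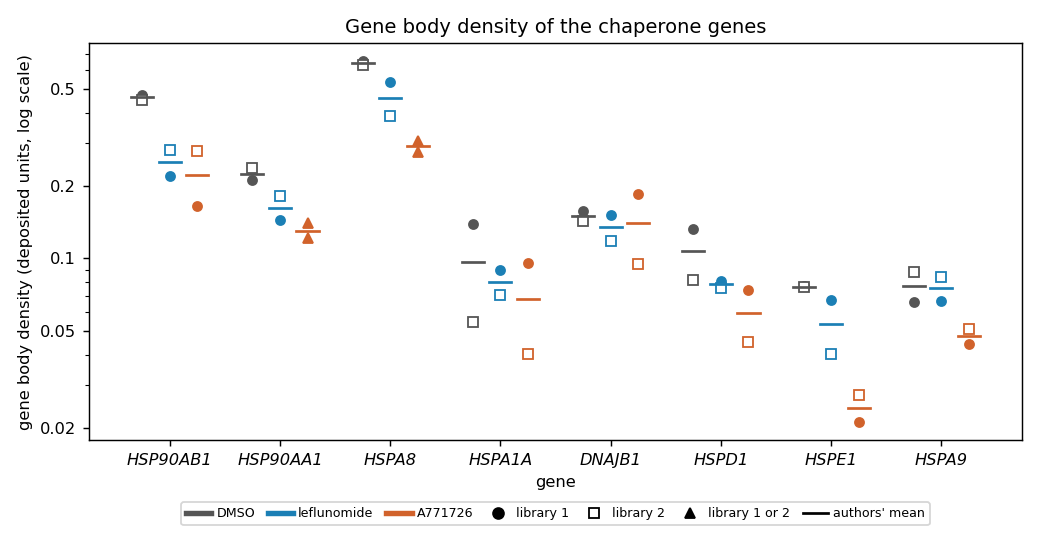
Gene body density (deposited units, log axis) of the 8 chaperone genes in DMSO (grey), leflunomide (blue) and A771726 (orange). Points are recovered libraries (circle 1, square 2, triangle where it is not known which), and bars are the authors' means. Both A771726 values of HSP90AB1, HSP90AA1, HSPA8, HSPD1, HSPE1 and HSPA9 lie below both DMSO values, those of DNAJB1 lie on either side of DMSO, and 1 of HSPA1A lies between the DMSO values.

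The first comparison asks how each compound changed polymerase density along the chaperone genes. All 8 means lay below DMSO under leflunomide (55.4% of all genes did) and under A771726 (85.6% did). In a bulk assay, fewer transcribing cells and less polymerase per cell cannot be told apart. Library scaling is not stated in the sources used here, so a difference in scaling cannot be told apart from either. The median log2 change of the 8 was −0.45 under leflunomide and −0.80 under A771726, against −0.06 and −0.52 for the median of 8706 genes kept. So the median gene also lay lower under A771726, and changes are given relative to it as well. Relative to the median gene, 7 of the 8 chaperone genes lay lower under leflunomide and 6 of 8 under A771726. No chaperone gene was at least 2-fold lower under leflunomide (4.5% of all genes were) and 3 were under A771726 (18.5% of all genes were), and none was 2-fold higher with either (1.81% and 0.701%). Relative to the median gene the 2-fold lower count was 0 under leflunomide (3.89%) and 1 under A771726 (5.74%).

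The libraries were tested with limma over 5141 genes, with Benjamini-Hochberg adjustment over all of them. It called none of the chaperone genes against DMSO under leflunomide (0.0% of all genes called) or under A771726 (0.0% called). At an unadjusted limma p under 0.05, 1 chaperone gene was lower under leflunomide (3.17% of all genes) and 4 of 8 were lower under A771726 (21.9%). Both leflunomide libraries lay below both DMSO libraries in 5 of 8 genes (21.2% of all genes), and both A771726 libraries did in 6 of 8 (55.3%). None of the 8 lay wholly above DMSO under leflunomide (14.2%) or A771726 (2.14%). With 2 libraries against 2, an exact permutation test of a single gene cannot give a p below 0.33.

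Among the HSP90 genes, HSP90AB1 had gene body densities of 0.474 and 0.451 in the DMSO libraries, 0.218 and 0.281 under leflunomide and 0.165 and 0.278 under A771726. All 4 treated libraries lay below both DMSO libraries, and the libraries of the 2 compounds overlapped. Its mean was 54.0% of DMSO under leflunomide and 47.8% under A771726. The limma log2 change was −0.90 under leflunomide (95% interval −1.65 to −0.14, adjusted p = 0.979) and −1.10 under A771726 (−1.86 to −0.35, adjusted p = 0.154). Its leflunomide change of the means lay at the 5.95th percentile of the genes kept, the lowest of the 8. Its A771726 change lay at the 16.2nd. Relative to the median gene the change was −0.83 under leflunomide and −0.54 under A771726.

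HSP90AA1 (NM_005348) had densities of 0.211 and 0.236 in DMSO, 0.144 and 0.181 under leflunomide and 0.121 and 0.140 under A771726. The 3 groups did not overlap, with DMSO highest and A771726 lowest. The mean was 72.6% of DMSO under leflunomide and 58.4% under A771726, and the limma change was −0.46 (−1.11 to 0.18, adjusted p = 1.00) and −0.77 (−1.42 to −0.12, adjusted p = 0.191). The longer HSP90AA1 transcript, NM_001017963, begins at a separate start, and its own gene body density was lower, at 0.0401 in DMSO, 0.0323 under leflunomide and 0.0276 under A771726. The 2 transcripts share their downstream exons, so their rows are not independent.

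Among the HSP70 genes, HSPA8 had the highest densities of the list, 0.651 and 0.629 in DMSO, 0.536 and 0.387 under leflunomide and 0.276 and 0.307 under A771726. The groups did not overlap, and the A771726 values lay lowest. The mean was 72.1% of DMSO under leflunomide and 45.5% under A771726. The limma change was −0.49 under leflunomide (−1.13 to 0.15, adjusted p = 1.00) and −1.13 under A771726 (−1.77 to −0.49, adjusted p = 0.131).

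The inducible HSP70 gene HSPA1A had densities of 0.138 and 0.0547 in DMSO, 0.0893 and 0.0704 under leflunomide and 0.0957 and 0.0403 under A771726. In DMSO and A771726 its libraries lay further apart than the group means, and all 3 groups overlapped. The limma change was −0.13 under leflunomide (−1.42 to 1.15) and −0.47 under A771726 (−1.76 to 0.82, adjusted p = 0.586), so a change of 2-fold either way lies within the interval for leflunomide. Its A771726 change of the means was 0.03 relative to the median gene. HSPA1A and HSPA1B are near-identical in sequence, and how reads that fit both were counted is not given in the sources used here, so the HSPA1A values are uncertain. The same caution holds for HSP90AA1, HSP90AB1, HSPA8, HSPD1 and HSPE1, which have processed pseudogene copies elsewhere in the genome.

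DNAJB1, the co-chaperone, had densities of 0.157 and 0.143 in DMSO, 0.152 and 0.118 under leflunomide and 0.185 and 0.0951 under A771726. The A771726 libraries lay on either side of DMSO. The mean was 89.6% of DMSO under leflunomide and 93.2% under A771726, and the limma change under A771726 was −0.17 (−1.04 to 0.69, adjusted p = 0.769). Relative to the median gene, DNAJB1 had a change of 0.42 under A771726, the opposite sign. Its change lay at the 81.2nd percentile of the genes kept, the highest of the 8.

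Of the mitochondrial chaperones, HSPE1 had the largest difference from DMSO of the list under A771726. Its densities were 0.0766 and 0.0759 in DMSO, 0.0675 and 0.0402 under leflunomide and 0.0211 and 0.0274 under A771726. Both A771726 values lay below both leflunomide values, which lay below both DMSO values. The A771726 mean was 31.8% of DMSO, and the limma change was −1.58 (−2.44 to −0.72, adjusted p = 0.131). The change of the means lay at the 5.17th percentile of the genes kept. HSPE1 was also the 1 chaperone gene at least 2-fold lower relative to the median gene (−1.05). With leflunomide the mean was 70.6% of DMSO and the limma change −0.53 (−1.39 to 0.33, adjusted p = 1.00).

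HSPD1 (NM_002156), the HSP60 partner that shares the promoter region with HSPE1, had densities of 0.133 and 0.0817 in DMSO, 0.0808 and 0.0756 under leflunomide and 0.0738 and 0.0452 under A771726. The groups did not overlap, although the lower DMSO value and the higher leflunomide value differed by less than either pair. The limma change was −0.40 under leflunomide (−1.30 to 0.49) and −0.83 under A771726 (−1.72 to 0.07, adjusted p = 0.248). The other HSPD1 transcript, NM_199440, had gene body means of 0.112 in DMSO, 0.0842 under leflunomide and 0.0608 under A771726.

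HSPA9 had densities of 0.0661 and 0.0878 in DMSO, 0.0666 and 0.0837 under leflunomide and 0.0442 and 0.0513 under A771726. Leflunomide and DMSO overlapped almost wholly, and both A771726 values lay below the other 4. The mean was 97.7% of DMSO under leflunomide and 62.1% under A771726. The limma change was −0.03 under leflunomide (−0.81 to 0.75) and −0.65 under A771726 (−1.43 to 0.12, adjusted p = 0.273), and relative to the median gene the A771726 change of the means was −0.14.

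**Figure D2:**
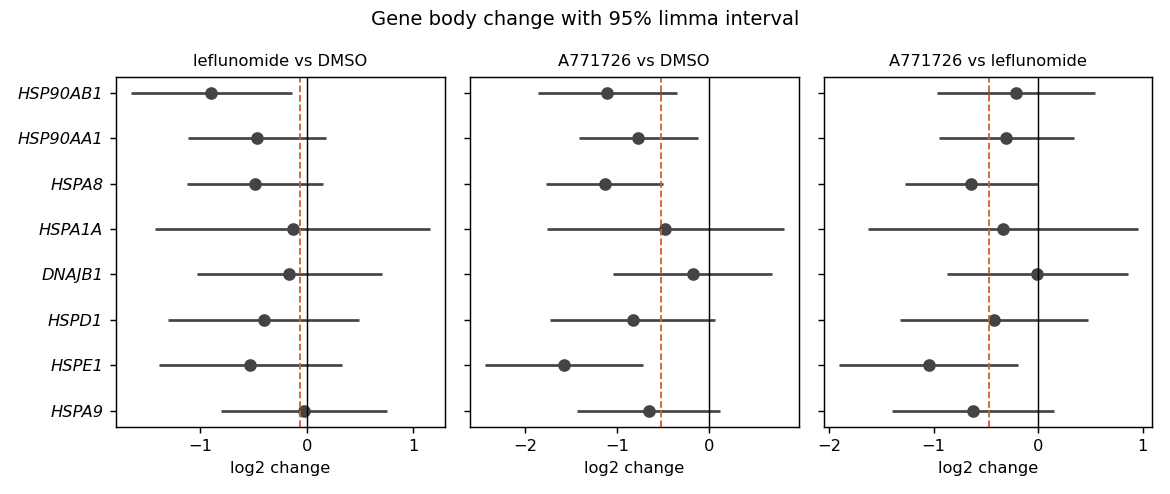
Limma log2 change of gene body density (x axis) for each chaperone gene (y axis), with 95% intervals, in the 3 comparisons. The solid line is 0 and the dashed line the median gene, at −0.06, −0.52 and −0.47 from left to right. The intervals of HSP90AB1, HSP90AA1, HSPA8 and HSPE1 exclude 0 for A771726 against DMSO, and all but that of HSPE1 include the dashed line there.

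The 2 compounds form 1 pair at a matched dose and time, and differ by the closed or open isoxazole ring. Both treatments were set against each other directly, since each is also compared with the same 2 DMSO libraries. From the means, the median log2 difference of A771726 from leflunomide was −0.35 over the chaperone genes and −0.47 over all genes, and 3 of 8 chaperone genes lay below the median gene. Both A771726 libraries lay below both leflunomide libraries in 5 of 8 genes (55.3% of all genes) and above them in none (2.39%). At least 2-fold lower was 1 chaperone gene, HSPE1 (12.4% of all genes), and none was 2-fold higher (1.05%). Limma called none of the 8 (0.0% of all genes), and 2 of 8 were lower at an unadjusted p under 0.05 (14.9%).

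For HSPE1 the limma difference between the compounds was −1.05 (−1.91 to −0.19, adjusted p = 0.325), and for HSPA8 it was −0.64 (−1.28 to −0.01, adjusted p = 0.326). For HSP90AB1 it was −0.21 (−0.96 to 0.55, adjusted p = 0.687) and for DNAJB1 −0.01 (−0.88 to 0.86, adjusted p = 0.988), and neither interval excludes a difference in either direction. The remaining estimates lay between −0.63 for HSPA9 (−1.40 to 0.15) and −0.30 for HSP90AA1 (−0.95 to 0.34). Relative to the median gene the differences of the means were −0.61 for HSPE1, −0.18 for HSPA8 and −0.16 for HSPA9, and above 0 for the other 5, with DNAJB1 at 0.53 and HSP90AB1 at 0.30.

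**Figure D3:**
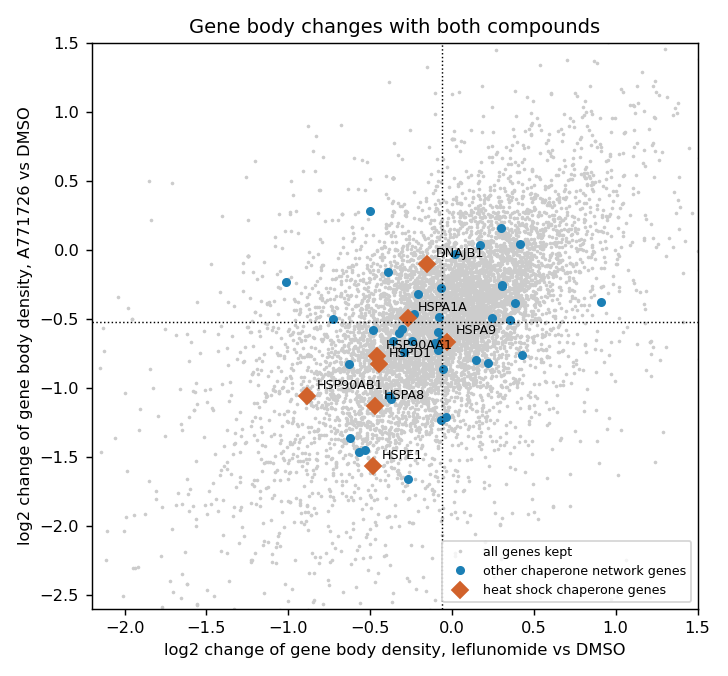
Log2 change of mean gene body density under leflunomide (x axis) and A771726 (y axis) against the same DMSO means. Grey points are the 8706 genes kept (138 fall outside the axes), blue points other chaperone network genes, orange diamonds the 8 chaperone genes, and dotted lines the median gene. All 8 lie below 0 on both axes, HSP90AB1 farthest left and HSPE1 lowest.

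Promoter densities rest on few reads. HSP90AB1 had promoter densities of 1.36 and 0.728 in DMSO, 0.925 and 0.338 under leflunomide and 0.265 and 0.282 under A771726, which is 31.1, 14, 26.6, 9, 11 and 9 times the value of 1 read. Its A771726 libraries lay below the other 4, and its leflunomide libraries overlapped DMSO. The limma change under A771726 was −1.80 (−3.10 to −0.51, adjusted p = 0.938), the only chaperone promoter below an unadjusted p of 0.05. At that threshold 121 of all 5419 genes tested were lower under A771726 and 77 higher. Without limma's trend and robust options no chaperone promoter passed it under A771726. HSPA8, with the highest promoter density, had 0.914 and 1.61 in DMSO, 1.26 and 1.09 under leflunomide and 0.912 and 0.868 under A771726. Its leflunomide values lay between the DMSO values, and the A771726 values lay just below the lower of them.

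HSPE1 and HSPD1 had the same promoter densities in DMSO, 0.306 and 0.104 (7 and 2 reads), in the region where their starts face each other. With leflunomide HSPE1 had 0.208 and 0.226 and HSPD1 0.233 and 0.263, and under A771726 HSPE1 had 0.0241 and 0.0939 (1 and 3 reads) and HSPD1 0.0481 and 0.0939 (2 and 3 reads). In these rows both genes thus had their lowest densities under A771726 in both libraries, on counts of 1 to 3 reads. By reads the order differs, as A771726 library 2 held 3 reads and DMSO library 2 held 2. Its density is lower because 1 read stood for 0.0313 there and for 0.0520 in DMSO library 2. The other HSPD1 transcript, NM_199440, showed another order, with promoter means of 0 in DMSO, 0.166 under leflunomide and 0.047 under A771726. Whether reads were counted by strand is not given in the sources used here, so the promoter reads of this gene pair cannot be told apart. The limma change under A771726 was −1.55 for HSPE1 (−3.90 to 0.81) and −1.22 for HSPD1 (−3.42 to 0.99), each with an adjusted p of 0.994.

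HSPA9 showed another order, with 0.175 and 0.156 in DMSO, 0.0347 and 0.0752 under leflunomide (1 and 2 reads) and 0.192 and 0.250 under A771726 (8 reads in each). Its leflunomide libraries lay below DMSO and its A771726 libraries above it. HSP90AA1 had 0.199 and 0.468 in DMSO, 0.208 and 0.107 under leflunomide and 0.392 and 0.3328 under A771726, under A771726 inside the DMSO range. For DNAJB1 (1.09 and 0.260 in DMSO, 0.763 and 0.714 under leflunomide, 0.722 and 0.250 under A771726) and HSPA1A (0.438 and 0.104, 0.0694 and 0.188, 0.289 and 0.0626) the spread within the DMSO pair and within the A771726 pair exceeded any difference between group means. In both genes library 1 of DMSO and of A771726 was the higher one.

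**Figure D4:**
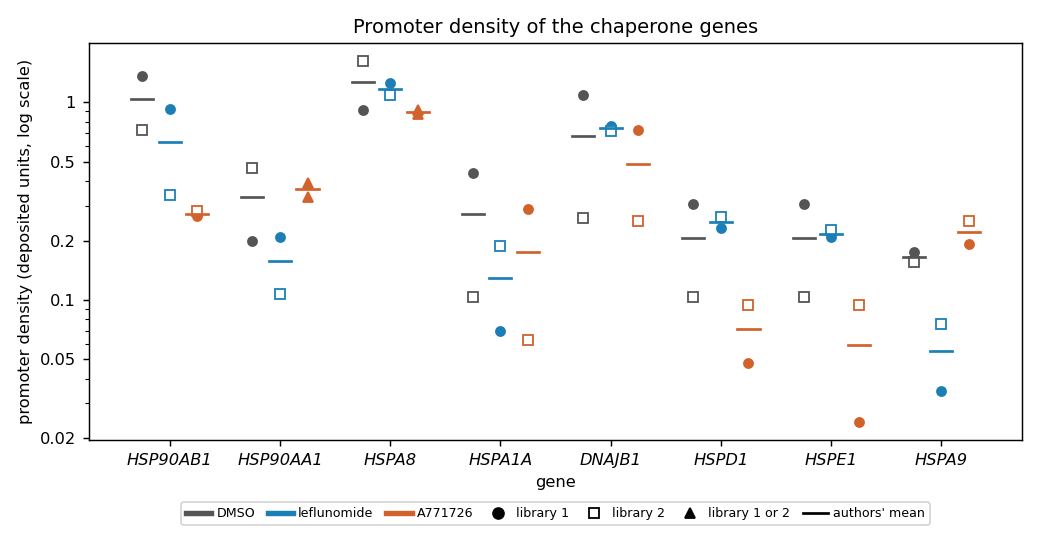
Promoter density (deposited units, log axis) of the 8 chaperone genes, drawn as for gene bodies. HSP90AB1 and, narrowly, HSPD1 (NM_002156), HSPE1 and HSPA8 have both A771726 libraries below the other 4, and HSPA9 has both leflunomide libraries below the other 4.

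Over the list, the median promoter log2 change was −0.41 under leflunomide and −0.54 under A771726, against 0.21 and 0.00 for all genes kept. At least 2-fold lower were 2 of 8 chaperone promoters under leflunomide (15.9% of all genes), 3 under A771726 (26.0%) and 3 between A771726 and leflunomide (29.0%). In the rows used, none was 2-fold higher against DMSO (29.0% under leflunomide and 21.1% under A771726), and 2, HSPA9 and HSP90AA1, were higher under A771726 than under leflunomide (13.5%). With the highest row of each symbol, which takes HSPD1 from NM_199440, 1 promoter was 2-fold higher under leflunomide (30.6% of all genes). With those rows 1 was 2-fold higher under A771726 (20.8%) and 2 were 2-fold lower (26.0%). With a 5 times larger pseudocount, 0 of 8 were 2-fold lower under leflunomide (3.12% of all genes) and 2 of 8 under A771726 (6.69%). The libraries lay wholly below DMSO in 1 gene under leflunomide (10.3%) and in 4 under A771726 (15.5%), and wholly above in none under leflunomide (16.7%) and in 1 under A771726 (10.6%). Against leflunomide, A771726 lay wholly below in 4 (22.1%) and above in 2 (7.68%). Limma over 5419 genes called no chaperone promoter under leflunomide (0.221% of all genes called), A771726 (0.24%) or between them (0.0%).

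The traveling ratio sets promoter against gene body density, and a higher value means relatively more polymerase near the start. HSPA9 separated the groups, with ratios of 2.65 and 1.78 in DMSO, 0.521 and 0.898 under leflunomide and 4.35 and 4.88 under A771726. The 3 groups did not overlap, under leflunomide below DMSO and A771726 above it. The limma difference between the compounds was 2.75 on the log2 scale (0.68 to 4.82, adjusted p = 0.874), and the leflunomide ratios rest on 1 and 2 promoter reads. It was the 1 ratio among the 8 genes and 3 comparisons with an unadjusted limma p under 0.05. Between the compounds, 70 of all 1907 genes tested were higher and 26 lower at that threshold. HSPA8 had ratios of 1.40 and 2.56 in DMSO, 2.34 and 2.82 under leflunomide and 3.31 and 2.83 under A771726, so that both A771726 values lay above DMSO, by a limma change of 0.69 (−1.33 to 2.71, adjusted p = 0.873).

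HSP90AB1 had ratios of 2.87 and 1.61 in DMSO, 4.24 and 1.20 under leflunomide and 1.61 and 1.01 under A771726. Promoter and gene body were both lower under A771726, and both ratios lay below the DMSO ones, 1 of them by a margin lost in rounding, with a limma change of −0.75 (−2.94 to 1.44, adjusted p = 0.873). HSP90AA1 had ratios of 0.941 and 1.99 in DMSO, 1.45 and 0.595 under leflunomide and 3.24 and 2.38 under A771726, the last above the other 4. Its separate upstream start (NM_001017963) had mean ratios of 3.63 in DMSO, 7.77 under leflunomide and 13.0 under A771726, with promoter reads of 6 and 0 in DMSO, 11 and 3 under leflunomide and 13 in each A771726 library.

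HSPD1 had ratios of 2.31 and 1.27 in DMSO, 2.88 and 3.48 under leflunomide and 0.652 and 2.08 under A771726. Its leflunomide libraries lay above those of both other groups in this transcript, NM_002156. In NM_199440 the mean ratios were 0 in DMSO, 2.02 under leflunomide and 0.986 under A771726. There the leflunomide libraries (0.792 and 3.26) overlapped the A771726 ones (0 and 1.97). DNAJB1 had the highest DMSO mean ratio of the list, 4.39, from libraries at 6.96 and 1.82, and the mean ratios of DNAJB1, HSPE1 and HSPA1A were 5.55, 4.35 and 1.72 under leflunomide and 3.27, 2.28 and 2.29 under A771726. The libraries of these 3 genes overlapped DMSO with both compounds.

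**Figure D5:**
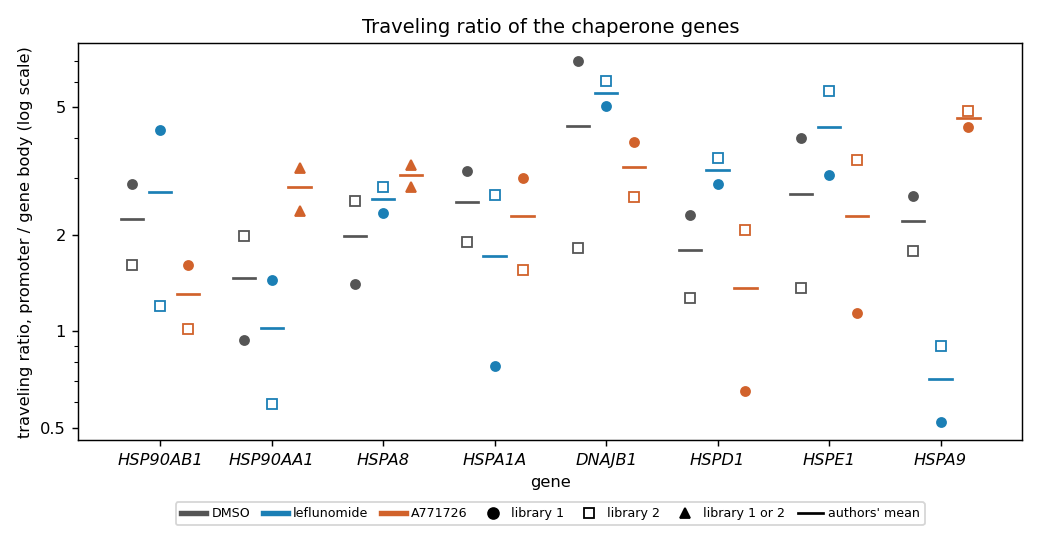
Traveling ratio (promoter over gene body density, log axis) of the 8 chaperone genes, drawn as for gene bodies. HSPA9 separates the 3 groups, under leflunomide lowest and A771726 highest, and HSPD1 (NM_002156) has both leflunomide libraries above the other 4.

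The median log2 change of the ratio over the 8 genes was 0.31 under leflunomide and −0.19 under A771726, against 0.28 and 0.42 for 5381 genes. The A771726 median was 0.12 when all rows of a symbol were averaged, so its sign depends on the row used. At least 2-fold higher were none of 8 under leflunomide (28.2% of all genes), 1 under A771726 (34.8%) and 2 between A771726 and leflunomide (26.9%). At least 2-fold lower were 1 (15.5%), 0 (17.2%) and 2 (20.9%) in the same order. Libraries lay wholly above DMSO in 1 gene under leflunomide (22.8%) and 3 under A771726 (28.9%), and wholly below in 1 (10.6%) and 1 (7.97%). Against leflunomide, A771726 lay wholly above in 3 (23.0%) and below in 2 (11.7%). Limma over 1907 genes called none of the 8 under leflunomide (0.524% of all genes called), under A771726 (0.0%) or between the compounds (0.0%).

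The wider chaperone network was read from a list of 61 other genes, of which 46 have a row and 43 passed the gene body filter. Its median gene body change was −0.09 under leflunomide and −0.60 under A771726, closer to the median gene (−0.06 and −0.52) than the 8 chaperone genes were. At least 2-fold lower were 1 network gene under leflunomide (4.5% of all genes) and 9 under A771726 (18.5%), and none was 2-fold higher. Limma tested 34 of the network genes and called none, with 7 lower under A771726 at an unadjusted p under 0.05 (21.9% of all genes). Without A771726 library 1, STIP1, a protein that links HSP70 to HSP90, had a log2 change of −2.48, against −1.52 with all libraries. The value of −2.48 rests on 1 A771726 library (density 0.0107, against 0.0464 in the library left out). STIP1 is named here after its value was seen.

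Under A771726, 85.6% of all genes lay below DMSO, and relative to the median gene 25 of the 43 network genes lay lower. Within that network, all 9 HSP90 co-chaperones and relatives that passed lay below DMSO under A771726, with a median of −0.66, from FKBP4 (−1.36), an HSP90-binding immunophilin, to CDC37 (−0.16), which brings kinases to HSP90. All 9 HSP70 relatives and exchange factors also lay below DMSO, with a median of −0.66, from HSPA1L (−1.66), next to HSPA1A in the genome, to ST13 (−0.39), an HSP70-binding cofactor. All 8 J proteins did, from DNAJB11 (−1.46), of the endoplasmic reticulum, to DNAJB6 (−0.26). The 7 subunits of the cytosolic CCT chaperonin ran from CCT8 (−1.21) to CCT3 (−0.27). The medians of these 4 groups lay between −0.74 and −0.66, below the all-gene median of −0.52.

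Among the remaining groups under A771726, the 5 mitochondrial genes had a median of −0.23, from CLPX (−0.57), a protease subunit, to GRPEL1 (0.05), the exchange factor of HSPA9. The 2 genes that passed in the small heat shock protein group of the list were HSPB1 (0.04) and HSPB11 (0.16). The 3 genes of the heat shock factor group of the list had a median of −0.67, that of HSF1. They ran from HSBP1 (−0.76), an HSF1-binding protein and not itself a heat shock factor, to HSF4 (0.29).

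The 5 genes most like HSP90AB1 in their pair of gene body changes, out of 1238 genes in the top of the density range (from the 90th percentile), were FKBP2, SNORA10, PPP1R14B, MIR150 and RXFP4. Their Euclidean distances from HSP90AB1 on the log2 scale ran from 0.0437 for FKBP2 to 0.108 for RXFP4, over the 2 changes from 3 group means. FKBP2, an immunophilin of the endoplasmic reticulum, had mean densities of 0.184 in DMSO, 0.102 under leflunomide and 0.0866 under A771726, and limma changes of −0.83 and −1.05 (adjusted p = 0.979 and 0.148). The likeness was found by this search over both changes and has no test.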

How the data were processed

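GRO-seq was analysed for A375 cells in 3 groups of 2 samples. Per the submitters' processing notes, the authors used Bowtie 0.12.9, bedtools and the build hg18. Window limits, annotation release and library scaling are not stated there. The deposited values are promoter and gene body read densities averaged by the authors over each group, and the deposited ratio values are the authors' mean traveling ratios, per the file headers. The headers write A771762, read as A771726.

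Library values were solved from the 3 means, which were built from densities with 4 decimals. A single solution was found in 90.8%, 94.6% and 93.7% of usable rows (DMSO, leflunomide, A771726), and 77.8%, 76.8% and 79.1% of promoter values lay on whole reads. Why the others do not is not known. The solving was tested on simulated data in which every promoter value was a whole number of reads, so that test does not cover the others. Among the rows used, such values occur for HSPA8 and HSP90AA1 in every group. They also occur for HSP90AB1 in DMSO and leflunomide and for HSPD1 under leflunomide. The overlaps and limma intervals of these genes rest on them. For a chaperone gene row, up to 0.208 solutions were expected by chance in a group (HSPA8 in DMSO). One row stands for each symbol, a solved row where there is one, then the highest gene body density. Genes below the 30th percentile of row means were left out. Log2 changes of means use a pseudocount of 0.0022 (gene body) or 0.01735 (promoter), which understates changes of low genes, and none for ratios. Limma 3.58.1 in R 4.3.3 (trend and robust) fitted all 6 libraries on log2(value + pseudocount), with calls at adjusted p under 0.05. Other pseudocounts, filters, centrings, rows, limma options and left-out libraries were tried. Named network genes are the highest and lowest A771726 change of each group of the list, and the 5 nearest genes use a fixed distance rule. The members and lists were chosen with earlier results of these data known.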

Additional observations from a re-analysis of the deposited data

How the results depend on the processing

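Centred on the median gene, the chaperone gene body median was −0.28 for A771726 against DMSO (−0.80 uncentred) with 1 gene 2-fold lower, and 0.13 for A771726 against leflunomide (−0.35). The traveling ratio median for A771726 against DMSO was −0.61 centred and 0.12 over all rows (−0.19), and for A771726 against leflunomide 0.25 with the highest row of each symbol (−0.26), an alternative chosen after seeing the data that leaves 7 genes, without HSPD1. The network count 2-fold lower with leflunomide was 0 with a 5 times larger pseudocount, a stricter filter or centring. With A771726 the network count was 4 with that pseudocount and 1 centred, and the network median −0.079 centred, and −0.081 against leflunomide. Genes called without trend and robust options were 0 for promoters and for the leflunomide ratio. With only rows of known library (chosen after seeing the data) 13 genes were called for the A771726 ratio. The cause was not tested.

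Leaving out 1 library, gene body calls ranged from 0 to 75 (without A771726 library 1) for A771726 against DMSO and 0 to 1 for leflunomide. Promoter calls ranged from 12 to 33 (A771726) and 12 to 42 (leflunomide), both highest without DMSO library 1, and 0 to 6 between compounds (without A771726 library 1). Ratio calls ranged from 0 to 20 (A771726) and 0 to 10 (between compounds), both highest without A771726 library 1, and for leflunomide from 0 without its library 2 to 17 without DMSO library 1. None of the 6 chaperone genes covered, and of the network only STIP1 (gene body, without A771726 library 1), was called in any. Centred libraries and left-out libraries cover 6 of the 8 genes, without HSPA8 and HSP90AA1. Leaving out 1 library, HSPA1A ranged from −0.78 to 0.52 (leflunomide) and −1.12 to 0.18 (A771726), DNAJB1 from −0.34 to 0.014 and −0.65 to 0.30, and HSPA9 under leflunomide from −0.23 to 0.17. Of these, HSPA1A was above 0 without DMSO library 1, leflunomide library 2 (0.034) or A771726 library 2 (0.13), DNAJB1 without library 2 of either compound, and HSPA9 without DMSO library 2 or leflunomide library 1 (0.13). HSPD1 ranged from −0.75 to −0.062 (leflunomide; −0.062 without DMSO library 1) and −1.17 to −0.48 (A771726; −0.48 without DMSO library 1, −0.49 without A771726 library 2), HSPE1 from −0.89 to −0.17 (leflunomide; −0.17 without its library 2), and HSP90AB1 from −1.48 to −0.73 (A771726; −0.73 without its library 1). Centred, HSPA1A was 0.068 and DNAJB1 0.37 (A771726) and HSPA9 0.023 (leflunomide). No paired analysis was possible because the columns carry no replicate letters. Promoters of 1 to 3 reads limit their changes and ratios.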

Other observations

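The gene that follows HSP90AB1 in the RefSeq order of GRCh38, the nucleotide sugar transporter gene SLC35B2, had gene body densities of 0.316 and 0.330 in the DMSO libraries, 0.203 and 0.202 under leflunomide and 0.0939 and 0.159 under A771726. As at HSP90AB1, all treated libraries lay below both DMSO libraries, and at SLC35B2 the A771726 libraries also lay below the leflunomide ones. Its limma change was −0.67 under leflunomide (adjusted p = 1.00) and −1.39 under A771726 (adjusted p = 0.131). The next entry, the microRNA gene MIR4647, had mean densities of 0.316 in DMSO, 0.211 under leflunomide and 0.146 under A771726. Whether the reads of these neighbours come from separate transcripts was not tested.

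MOB4, which follows HSPE1, had gene body means of 0.0101 in DMSO, 0.0162 under leflunomide and 0.0132 under A771726. These means lay above DMSO where those of HSPE1 and HSPD1 lay below it. The A771726 libraries of MOB4 (0.0125 and 0.0138) overlapped the DMSO ones (0.0135 and 0.0066). Its leflunomide libraries (0.0178 and 0.0145) lay above DMSO. The limma change of MOB4 was 0.64 under leflunomide (adjusted p = 1.00) and 0.38 under A771726 (adjusted p = 0.524).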
